A study of Mus musculus with 16 samples.

Results

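The 10 cytokine receptor genes *Il21r*, *Il4ra*, *Il2rg*, *Il2rb*, *Il10ra*, *Il10rb*, *Il6ra*, *Il6st*, *Ifngr1* and *Ifnar1* were followed in positively selected germinal center (GC) B cells of the mouse. They were chosen by name, as 10 of the 51912 genes in the table of normalized counts. No cutoff on a measured value was applied, but earlier results of these data were known when the list was made. The libraries were made from splenic cells of cMyc gfp/gfp reporter mice on the C57BL/6J background, in which a GFP-cMyc fusion protein is made from the endogenous locus, 7 d after sheep red blood cells (SRBC) were given intraperitoneally. Male and female mice of 6 to 15 weeks were used, B cells were enriched by depletion of CD43-bearing cells, and the labels do not say how many mice went into a library. All cells were sorted as B220+, CD38 low, CD95+ and cMyc-GFP+. Within this gate, cMyc+ prePB cells were CD69hi, cMyc+ early cells were high, cMyc+ lateCD23int cells intermediate and cMyc+ lateCD23lo cells low for both CD23 and CD21/35. By the study's gating, the early and late cells were light zone cells, taken after CD69hi cells and CXCR4hi CD86lo dark zone cells were set aside. The zone markers were not used to define cMyc+ prePB cells, which were mostly light zone cells. Each of these 4 subpopulations had 4 libraries, and no cMyc-negative or unimmunized group is among the 16. The question put to the data was whether the transcript levels of these receptors differed between the 4 subpopulations.

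A cytokine receptor of this class is built from 2 or 3 chains that carry JAK kinases at their cytoplasmic tails, and ligand binding brings the chains together so that STAT transcription factors are phosphorylated and enter the nucleus. IL-21 and IL-4, both made by T follicular helper cells, signal to GC B cells through *Il21r* or *Il4ra* paired with the common gamma chain *Il2rg*. IL-21 acts mainly through STAT3 and favours GC maintenance and plasma cell formation, whereas IL-4 acts through STAT6 and induces CD23 on B cells. Interferon gamma and type I interferons each use a pair of chains of their own. IL-6 and IL-10 each use a ligand-binding chain together with a chain that other cytokines share.

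Depth was similar in all libraries, with 19812080 to 25795815 reads recovered from the normalized counts per library, and 3 reads, taken as the limit of measurement, correspond to 2.48 to 3.23 normalized counts. This limit covers counting error only. The B cell label held in every library: *Ms4a1* was at 40188 to 144160 and the GC B cell gene *S1pr2* at 355 to 1914 normalized counts. Of the markers of other cells, *Ncr1*, *Cd14*, *Col1a2* and *Pdgfrb* were at or under 3 reads in all 16 libraries, *Cd3e* in 14 and *Csf1r* in 13. Others were present, *Trac* at 11.6 to 110 normalized counts in all 16, *Lyz2* above 3 reads in 12 with up to 968, and *Pecam1*, an endothelial marker that leukocytes also express, at 241 to 1326. The sum of the 4 stroma and endothelial markers was 243 to 784 in cMyc+ prePB, 942 to 1329 in cMyc+ early, 702 to 1248 in cMyc+ lateCD23int and 489 to 637 in cMyc+ lateCD23lo. This sum was nearly all *Pecam1*, since *Col1a1* did not exceed 4.51 normalized counts. The paper names *Pecam1* among genes associated with memory B cells that were up-regulated in cMyc+ early. The 8 T cell markers summed to 49.6 to 206 normalized counts in cMyc+ prePB, 12.6 to 72.2 in cMyc+ early, 59.2 to 93.9 in cMyc+ lateCD23int and 104 to 239 in cMyc+ lateCD23lo. The plasma cell marker *Sdc1* was at or under 3 reads in 13 libraries, while *Jchain* was at 18862 to 104886 normalized counts. In bulk samples, fewer cells that express a gene and less RNA per cell cannot be told apart.

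Levels of the receptors spanned more than 3 orders of magnitude once divided by the length of their exons. *Il2rg*, the signalling chain shared by the receptors of IL-2, IL-4, IL-7, IL-9, IL-15 and IL-21, had the highest median over the 16 libraries, at 7563 normalized counts per kilobase of exon (range 4570 to 10853). It made up 75.0% to 87.1% of the summed level per kilobase of the 10 genes in each library. *Ifngr1*, the ligand-binding chain of the interferon gamma receptor, was next at 952 per kilobase (622 to 1460) and *Il21r*, the ligand-binding chain for IL-21, next at 347 (172 to 945). *Il10rb*, *Ifnar1* and *Il4ra* followed at medians of 125, 60.1 and 44.8 per kilobase. The last 4 were *Il10ra* at 11.2, *Il6st* at 5.98, *Il2rb* at 5.01 and *Il6ra* at 4.42 per kilobase.

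The range of *Il2rg* lay above that of *Ifngr1* without overlap, and from there on the ranges of neighbours in the order overlapped. *Ifngr1* was nevertheless above *Il21r* in 15 of 16 libraries, and *Il21r* was above *Il10rb*, *Il10rb* above *Ifnar1* and *Il4ra* above *Il10ra* in all 16. *Ifnar1* exceeded *Il4ra* in 10 libraries, *Il6st* exceeded *Il2rb* in 9 and *Il2rb* exceeded *Il6ra* in 8, so that these neighbours were not separated. With the longest annotated transcript as the length, an alternative added after the data were seen, the order of the 10 genes was the same. In the plot of levels per kilobase the step below *Il2rg* and the wide scatter of the 4 lowest genes can be seen.

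**Figure D1:**
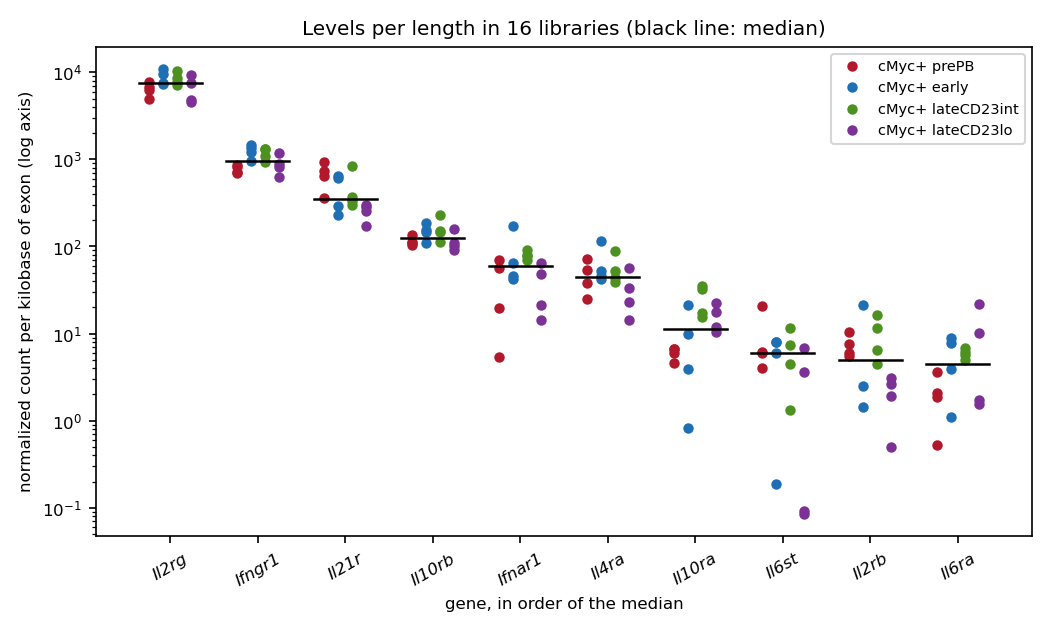
Levels of the 10 receptor genes as normalized counts per kilobase of exon on a log axis, 1 point per library coloured by subpopulation, with the median of 16 libraries as a black line. *Il2rg* stands alone at the top with a median of 7563, and the 4 lowest genes have medians of 4.42 to 11.2; the 1 *Il2rb* library at 0 is not drawn.

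Of the 10 genes, 7 had a promoter in the RefSeq table of the GRCm38.p6 build, while *Il10ra*, *Il10rb* and *Il2rb* had none there. The 250 bases before the transcription start are shown for the 3 genes with the highest level per kilobase, since these 3 carry most of the receptor transcripts. They are written 5′ to 3′ on the strand of the gene in lower case, with matches to the motifs below in capitals. The window of *Il2rg* is chrX:101268256-101268505 on the minus strand, that of *Ifngr1* chr10:19591699-19591948 on the plus strand and that of *Il21r* chr7:125603179-125603428 on the plus strand. No annotated exon lies in any of these 3 windows.
Il2rg: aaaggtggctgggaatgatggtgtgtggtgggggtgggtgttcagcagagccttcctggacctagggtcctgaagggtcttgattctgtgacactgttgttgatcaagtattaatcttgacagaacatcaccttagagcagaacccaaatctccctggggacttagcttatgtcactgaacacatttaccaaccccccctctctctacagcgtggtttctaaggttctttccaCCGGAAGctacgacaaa
Ifngr1: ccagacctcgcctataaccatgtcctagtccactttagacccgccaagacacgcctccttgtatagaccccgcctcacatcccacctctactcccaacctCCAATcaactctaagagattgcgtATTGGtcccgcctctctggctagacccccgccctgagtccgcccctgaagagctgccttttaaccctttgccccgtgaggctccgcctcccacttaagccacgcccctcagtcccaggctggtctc
Il21r: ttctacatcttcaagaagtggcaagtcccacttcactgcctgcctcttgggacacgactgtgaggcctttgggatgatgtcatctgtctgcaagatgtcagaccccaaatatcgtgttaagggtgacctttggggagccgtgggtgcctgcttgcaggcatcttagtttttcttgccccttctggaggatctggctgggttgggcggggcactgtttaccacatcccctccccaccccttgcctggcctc
The capitals mark a match to CCGGAAG, a core bound by ETS factors, from base -17 to -11 before the *Il2rg* start, and 2 matches to CCAAT, 1 on each strand, from -150 to -146 and from -126 to -122 before the *Ifngr1* start. On either strand, CCGGAAG was found in 6.91% and CCAAT in 33.8% of the 32851 promoters of the same length. The STAT motif TTCNNNGAA, found in 7.02% of all promoters, the AP-1 motif TGANTCA, found in 6.75%, the interferon response core GAAANNGAA, in 7.13%, and the NF-kB motif, in 7.25%, had no match in the 7 windows, nor had TATAAA, found in 12.4%. The motif CACGTG, in 6.02% of all promoters, was matched only in the window of *Il6ra*. Such a match is a description of letters, and the choice of motifs was made with these sequences in view. The *Il2rg* and *Il21r* windows held 3 and 4 CpG dinucleotides and the *Ifngr1* window 11, against a median of 6 over all promoters.

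**Figure D2:**
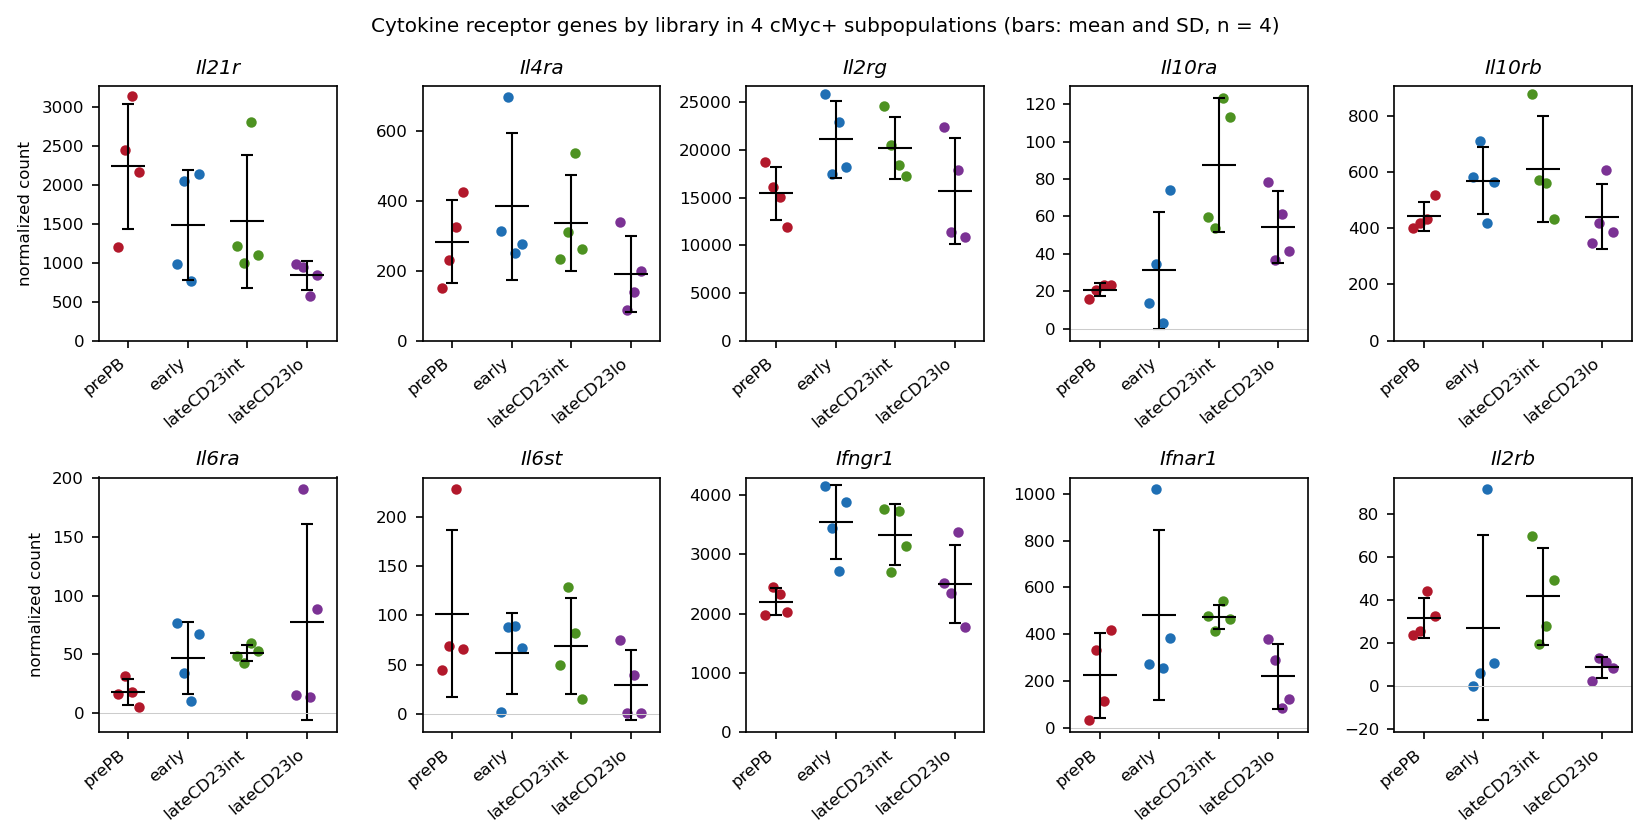
Normalized counts of the 10 receptor genes (each panel has its own linear axis) in the 4 libraries of each cMyc+ subpopulation, with the mean and SD as black bars. *Il21r* has its lowest mean in cMyc+ lateCD23lo (572 to 988), *Ifngr1* its lowest in cMyc+ prePB, and single libraries stand far above their group for *Il4ra*, *Ifnar1*, *Il6st* and *Il2rb*.

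Of the chains that receive IL-21 and IL-4, *Il21r* had its highest mean in cMyc+ prePB and *Il4ra* in cMyc+ early, the latter through 1 library. *Il21r* (ENSMUSG00000030745, chromosome 7, 125603429 to 125633570, plus strand) was at 1204, 2454, 3141 and 2166 normalized counts in cMyc+ prePB and at 982, 2046, 766 and 2134 in cMyc+ early. It was at 1216, 1003, 2804 and 1101 in cMyc+ lateCD23int and at 988, 945, 572 and 847 in cMyc+ lateCD23lo. The cMyc+ lateCD23lo libraries lay below all libraries of cMyc+ prePB and of cMyc+ lateCD23int, and overlapped with those of cMyc+ early. The mean in cMyc+ prePB was 2241 ± 804 (SD, n = 4), 2.67 times that in cMyc+ lateCD23lo (838 ± 187). The log2 fold change between them was 1.37 (SE 0.38, 95% confidence interval 0.57 to 2.16), with an unadjusted p of 0.00194 and an adjusted p of 0.141 in limma, which did not pass. In the fit without cMyc+ prePB replicate 1 the log2 fold change was 1.64 and the adjusted p 0.0422, whereas the other 15 fits that left out 1 library made no call. The multigroup F test gave *Il21r* an unadjusted p of 0.0174 and an adjusted p of 0.373.

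*Il4ra* (ENSMUSG00000030748), which binds IL-4, lies next to *Il21r* on chromosome 7 at 125552120 to 125579474, with 23954 bases and no other protein-coding gene between them. It was at 150.5, 231, 325 and 427 normalized counts in cMyc+ prePB and at 313, 698, 251 and 276 in cMyc+ early. It was at 235, 311, 538 and 262 in cMyc+ lateCD23int and at 340.5, 86.1, 138 and 198 in cMyc+ lateCD23lo. All groups overlapped, and in cMyc+ early, which had the highest mean (385 ± 211), replicate 2 was far above the other 3. The medians of *Il4ra* were 278, 295 and 287 in cMyc+ prePB, cMyc+ early and cMyc+ lateCD23int and 168 in cMyc+ lateCD23lo. Per kilobase, *Il21r* was above *Il4ra* in all 16 libraries, by 5.24 to 19.8 times. Between cMyc+ early and cMyc+ lateCD23lo the log2 fold change of *Il4ra* was 1.06 (interval 0.08 to 2.04, adjusted p = 0.440 in limma). The exons of *Il4ra* overlap an antisense gene over 571 bases, but that gene was at 0 in every library.

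*Il2rg* (ENSMUSG00000031304, chromosome X, 101264378 to 101268255, minus strand) was at 18677, 16127, 15017 and 11906 normalized counts in cMyc+ prePB and at 25906, 17419, 22885 and 18189 in cMyc+ early. It was at 24608, 20471, 18433 and 17216 in cMyc+ lateCD23int and at 22446, 11386, 17915 and 10909 in cMyc+ lateCD23lo. The ranges of all 4 groups overlapped. Of its exon bases 30.5% are shared with an annotated gene of the same strand, which did not exceed 2.04 normalized counts in any library. The means were 21100 ± 4013 in cMyc+ early and 20182 ± 3242 in cMyc+ lateCD23int, which gave a log2 fold change of 0.06 with an interval of -0.39 to 0.51. In cMyc+ prePB and cMyc+ lateCD23lo they were 15432 ± 2806 and 15664 ± 5537. The log2 fold change of cMyc+ early against cMyc+ lateCD23lo was 0.48 (interval 0.03 to 0.93, adjusted p = 0.452), and that of cMyc+ prePB against cMyc+ early was -0.45 (interval -0.90 to 0.00, adjusted p = 0.587 in limma). Over the 16 libraries *Il2rg* correlated with the summed B cell markers at r = 0.705 on the log2 scale. In each of the 4 subpopulations replicate 1 was the highest library for both, and r without these libraries was not computed. With the summed stroma and endothelial markers, a sum that was nearly all *Pecam1*, which leukocytes also express, *Il2rg* correlated at r = 0.607. The part of these markers in the level of *Il2rg* was not tested. The 5 B cell markers summed to 80224 to 135936 normalized counts in cMyc+ prePB, 103825 to 173830 in cMyc+ early, 133364 to 230171 in cMyc+ lateCD23int and 115758 to 183523 in cMyc+ lateCD23lo.

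*Il2rb* (ENSMUSG00000068227, chromosome 15), the signalling chain for IL-2 and IL-15, was scarce. It was at 23.6 to 44.2 normalized counts in cMyc+ prePB, 19.3 to 69.7 in cMyc+ lateCD23int and 2.16 to 13.1 in cMyc+ lateCD23lo, so that cMyc+ lateCD23lo lay below both without overlap. In cMyc+ early, replicate 1 was at 0, replicates 2 and 4 were at 6.19 and 10.8 and replicate 3 was at 91.4, the highest value of all 16 libraries. The NK cell markers, of which *Ncr1* was at 0 throughout and *Gzma* at or under 3 reads in 15 libraries, summed to 44.3 normalized counts in that replicate and to 0, 0 and 0.903 in the other 3 cMyc+ early libraries. The 44.3 was all *Klrb1c*. Over the 16 libraries the correlation of *Il2rb* with the NK marker sum was r = 0.610 on the log2 scale, and the part of NK cells in the level of *Il2rb* was not tested. The NK marker sum was at 15.3 to 47.8 in cMyc+ prePB, at 0 to 28.0 in cMyc+ lateCD23int and at 0 to 62.2 in cMyc+ lateCD23lo. Different genes carried it: in cMyc+ prePB *Nkg7* had a mean of 36.3 and *Klrb1c* of 0.207. In cMyc+ lateCD23lo these means were 4.68 and 27.6. Cells of cMyc+ lateCD23int against cMyc+ lateCD23lo gave a log2 fold change of 2.18 (interval -0.09 to 4.45, adjusted p = 0.806 in limma).

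Of the IL-10 receptor, the shared chain *Il10rb*, which also serves IL-22 and type III interferons, varied less between libraries than the ligand-specific chain *Il10ra*, with coefficients of variation of 11.7% to 30.9% and 16.5% to 100% within subpopulations. *Il10rb* (ENSMUSG00000022969, chromosome 16) had a mean of 443 ± 52.0 in cMyc+ prePB and of 569 ± 120 in cMyc+ early, and of 611 ± 189 in cMyc+ lateCD23int and 440.4 ± 116 in cMyc+ lateCD23lo, with ranges that all overlapped. The widest difference, between cMyc+ lateCD23int and cMyc+ lateCD23lo, was 0.46 on the log2 scale (interval -0.11 to 1.03, adjusted p = 0.827 in limma).

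*Il10ra* (ENSMUSG00000032089, chromosome 9), which binds IL-10, was at 16.1, 20.7, 23.4 and 23.4 normalized counts in cMyc+ prePB and at 13.6, 34.5, 2.89 and 74.0 in cMyc+ early. It was at 59.7, 53.9, 124 and 113 in cMyc+ lateCD23int and at 78.7, 36.5, 61.2 and 41.8 in cMyc+ lateCD23lo. All 8 libraries of the late subpopulations were above all 4 of cMyc+ prePB, while cMyc+ early spread over both, with replicate 3 at the limit of 3 reads. The log2 fold change of cMyc+ prePB against cMyc+ lateCD23int was -1.94 (interval -3.59 to -0.28, adjusted p = 0.489), and that of cMyc+ early against cMyc+ lateCD23int -2.07 (interval -3.73 to -0.42, adjusted p = 0.9999 in limma). The latter was -1.29 without cMyc+ early replicate 3 and -2.72 without cMyc+ early replicate 4. The 6 myeloid markers, with *Cd14* at the limit in all libraries, summed to 0.827 to 515 normalized counts in cMyc+ prePB, 2.89 to 153 in cMyc+ early, 48.8 to 639 in cMyc+ lateCD23int and 1.87 to 1166 in cMyc+ lateCD23lo. Their sum correlated with *Il10ra* at r = 0.571 over 16 libraries on the log2 scale, and their part in its level was not tested.

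The chains of the IL-6 receptor were both low and variable. *Il6ra* (ENSMUSG00000027947, chromosome 3), which binds IL-6, was at 4.51 to 31.4 normalized counts in cMyc+ prePB, 9.62 to 76.5 in cMyc+ early and 42.7 to 59.2 in cMyc+ lateCD23int. In cMyc+ lateCD23lo it was at 15.1, 191, 13.3 and 88.7, a spread that covered the ranges of cMyc+ lateCD23int and of cMyc+ early except for the lowest cMyc+ early library. The cMyc+ lateCD23int libraries lay above all those of cMyc+ prePB (log2 fold change of cMyc+ prePB -1.73, interval -3.64 to 0.18, adjusted p = 0.620 in limma).

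*Il6st* (ENSMUSG00000021756, chromosome 13) encodes gp130, the signalling chain for IL-6, LIF and related cytokines. It was at 45.1, 68.6, 228 and 65.8 normalized counts in cMyc+ prePB and at 2.10, 88.5, 89.5 and 66.8 in cMyc+ early. It was at 49.8, 129, 82.0 and 14.9 in cMyc+ lateCD23int and at 75.4, 0.936, 39.8 and 1.02 in cMyc+ lateCD23lo. Thus 3 libraries, 1 of cMyc+ early and 2 of cMyc+ lateCD23lo, held at most 3 reads, and the groups overlapped. The log2 fold change of cMyc+ prePB against cMyc+ lateCD23lo was 2.99 with a wide interval of 0.31 to 5.68 (adjusted p = 0.340 in limma), and the edgeR fit of the recovered reads gave a smaller value of 1.80. In limma it was 2.18 without cMyc+ lateCD23lo replicate 2 and 3.95 without replicate 1 of that group. Over the 16 libraries, *Il6ra* and *Il6st* ran opposite to each other (r = -0.64 on the log2 scale), the lowest correlation among the 45 pairs of members. With the means of the subpopulations removed, r was -0.66. The 3 libraries with at most 3 reads of *Il6st* held the 3 highest values of *Il6ra* (76.5, 191 and 88.7 normalized counts). A correlation without them was not computed.

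*Ifngr1* and *Ifnar1*, 1 chain for each interferon class, had lower means in cMyc+ prePB, and in cMyc+ lateCD23lo, than in the remaining 2 subpopulations. *Ifngr1* (ENSMUSG00000020009, chromosome 10, 19591949 to 19610229, plus strand) was at 1981, 2449.5, 2326 and 2028 normalized counts in cMyc+ prePB and at 4155, 3447, 2726 and 3881 in cMyc+ early. It was at 3758, 2693, 3737 and 3142 in cMyc+ lateCD23int and at 2515, 2342, 3374 and 1770.5 in cMyc+ lateCD23lo. Every library of cMyc+ early and of cMyc+ lateCD23int was above every library of cMyc+ prePB, and cMyc+ lateCD23lo overlapped with all. The means were 2196 ± 228, 3552 ± 624, 3332 ± 513 and 2501 ± 664 in the order above.

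*Ifngr1* had the lowest p of the 10 genes in the multigroup F test, 0.00571 unadjusted and 0.25 adjusted, and so did not pass. The log2 fold change of cMyc+ prePB was -0.68 (SE 0.19, interval -1.09 to -0.27, adjusted p = 0.240) against cMyc+ early and -0.59 (interval -1.0 to -0.19, adjusted p = 0.344) against cMyc+ lateCD23int. Against cMyc+ lateCD23lo it was -0.16 with an interval of -0.56 to 0.25. Between cMyc+ early and cMyc+ lateCD23lo, whose libraries overlapped, the log2 fold change was 0.53 (interval 0.12 to 0.93, adjusted p = 0.348 in limma). *Ifngr1* ran against the summed T cell markers (r = -0.57 over 16 libraries) and the summed plasma cell markers (r = -0.63), the latter sum being mostly *Jchain*. It ran with the summed stroma and endothelial markers (r = 0.725), a sum that was nearly all *Pecam1*, which leukocytes also express. The part of these markers in the level of *Ifngr1* was not tested. The 5 plasma cell markers summed to 37257 to 111293 normalized counts in cMyc+ prePB, 23488 to 30149 in cMyc+ early, 31588 to 59105 in cMyc+ lateCD23int and 56149 to 90119 in cMyc+ lateCD23lo. By mean, *Xbp1*, *Irf4* and *Sdc1* were highest in cMyc+ prePB (4820, 729 and 27.4 normalized counts). *Jchain* and *Prdm1* were highest in cMyc+ lateCD23lo (64836 and 82.9).

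*Ifnar1* (ENSMUSG00000022967, chromosome 16, 91485238 to 91507441, plus strand), a signalling chain for interferon alpha and beta, was at 32.2, 333, 115 and 419 normalized counts in cMyc+ prePB and at 271, 1019, 254 and 385 in cMyc+ early. It was at 479, 413, 541 and 465 in cMyc+ lateCD23int and at 380.4, 289, 84.6 and 125 in cMyc+ lateCD23lo. The cMyc+ lateCD23int libraries were close together (SD 52.5) and above all of cMyc+ lateCD23lo, and only the highest cMyc+ prePB library reached into their range. The log2 fold change of cMyc+ prePB was -1.63 (interval -3.04 to -0.22, adjusted p = 0.493) against cMyc+ lateCD23int and -1.41 (interval -2.82 to 0.00, adjusted p = 0.581 in limma) against cMyc+ early. Without cMyc+ prePB replicate 1, the lowest library, these were -0.90 and -0.68. *Ifnar1* correlated with the summed plasma cell markers, a sum that was mostly *Jchain*, at r = -0.72 over 16 libraries, and their part was not tested. *Ifnar1* and *Il10rb* lie 59403 bases apart on chromosome 16.

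Across all comparisons, none of the 10 genes passed an adjusted p of 0.05, and all 10 had passed the filter of a mean of at least 10 normalized counts, as had 12505 genes in all. In the multigroup F test 0 of 10 passed against 0.408% of all tested genes, and 3 of 10 (*Ifngr1*, *Il21r* and *Il10ra*) had an unadjusted p under 0.05 against 10.2%. In edgeR on the recovered reads, 0 passed and 2 had an unadjusted p under 0.05. The share of all genes under that unadjusted p is given for limma only, so the edgeR counts have no reference. P-values measure the spread between these libraries, and the labels do not say whether the libraries of a subpopulation came from separate mice. The intervals in the plot of fold changes show how closely 4 libraries per group fixed each difference: the standard error was 0.19 for *Ifngr1*, 0.22 for *Il2rg* and 0.27 for *Il10rb*, but 1.08 for *Il2rb* and 1.28 for *Il6st* on the log2 scale.

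**Figure D3:**
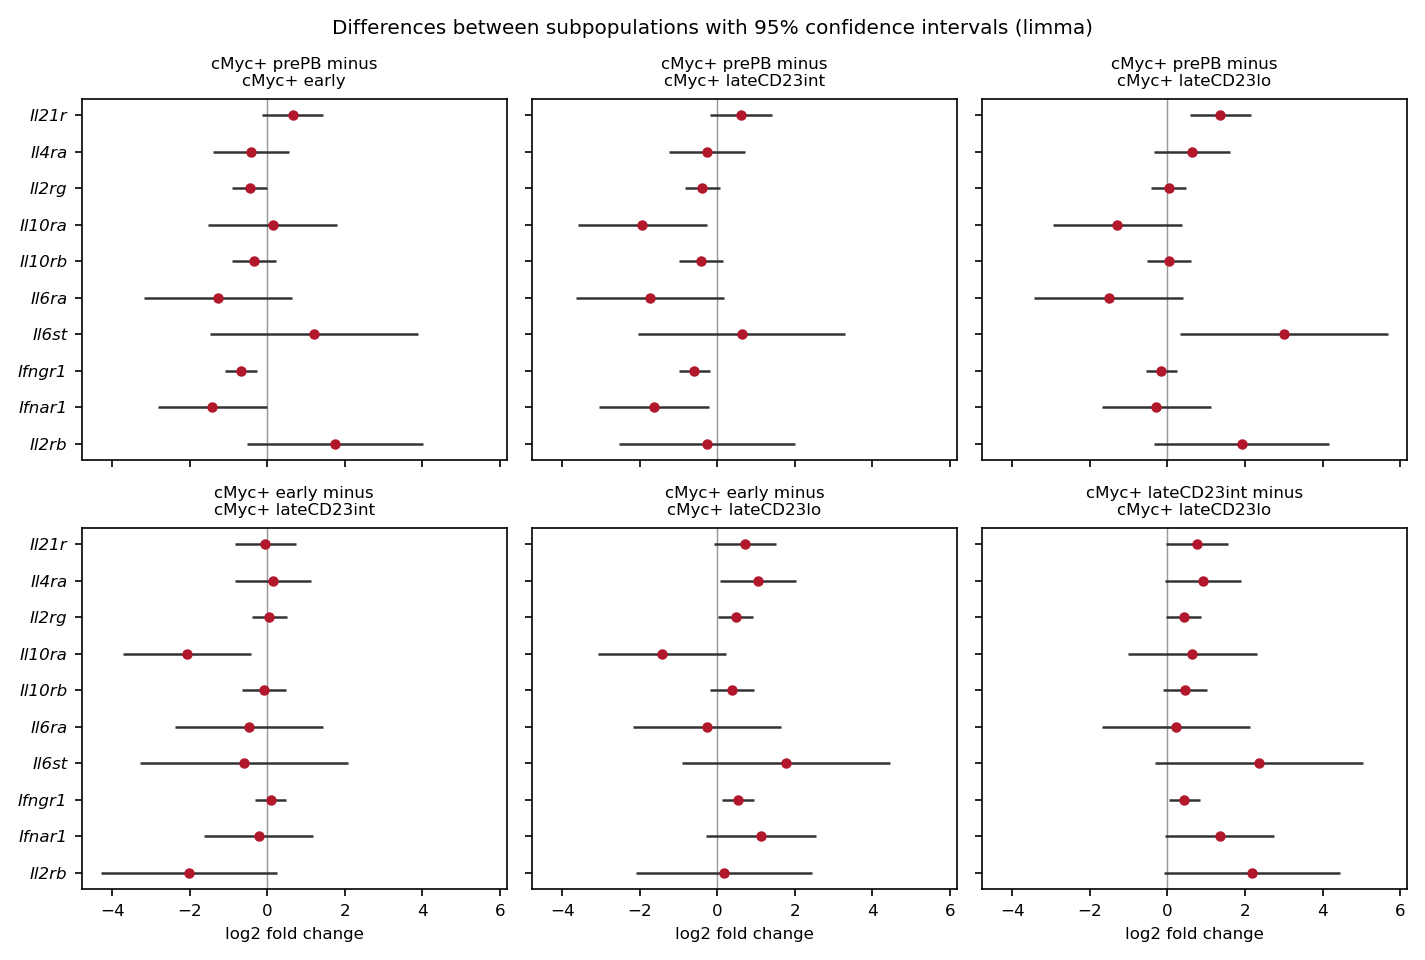
Log2 fold changes of the 10 receptor genes in the 6 comparisons (points) with 95% confidence intervals from limma (lines), the first-named subpopulation minus the second. In the comparison of cMyc+ lateCD23int with cMyc+ lateCD23lo all 10 points lie to the right of 0, and only the interval of *Ifngr1* clears it.

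Between cMyc+ prePB and cMyc+ early, 0 of 10 genes passed (0.192% of all tested genes), 2 (*Ifngr1* and *Ifnar1*, both lower in cMyc+ prePB) had an unadjusted p under 0.05 (8.58%), and 1 (*Ifngr1*) had groups that did not overlap (4.23%). Between cMyc+ prePB and cMyc+ lateCD23int, 0 passed (0.144%), 3 (*Il10ra*, *Ifngr1* and *Ifnar1*) had an unadjusted p under 0.05 (8.77%) and 3 (*Il10ra*, *Il6ra* and *Ifngr1*) did not overlap (5.21%), all of them lower in cMyc+ prePB. Between cMyc+ prePB and cMyc+ lateCD23lo, 0 passed (0.264%) and 2 (*Il21r* and *Il6st*, higher in cMyc+ prePB) had an unadjusted p under 0.05 (12.7%). There 3 did not overlap (6.56%), *Il21r* and *Il2rb* being higher and *Il10ra* lower in cMyc+ prePB. In edgeR, 0 genes passed in these 3 comparisons and 1, 2 and 2 had an unadjusted p under 0.05, with no share of all genes to set beside them. These comparisons share the cMyc+ prePB libraries.

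Between cMyc+ early and cMyc+ lateCD23int, 0 of 10 passed (0.00800%), 1 (*Il10ra*) had an unadjusted p under 0.05 (3.71%) and 0 had groups that did not overlap (2.48%). Between cMyc+ early and cMyc+ lateCD23lo, 0 passed (0.280%), 3 (*Il4ra*, *Il2rg* and *Ifngr1*, all higher in cMyc+ early) had an unadjusted p under 0.05 (10.3%) and 0 did not overlap (6.23%). Between cMyc+ lateCD23int and cMyc+ lateCD23lo, 0 passed (0.00800%), 1 (*Ifngr1*) had an unadjusted p under 0.05 (6.28%) and 3 (*Il21r*, *Ifnar1* and *Il2rb*) did not overlap (3.77%), all higher in cMyc+ lateCD23int. In edgeR, 0 passed in these 3 comparisons and 0, 3 and 2 had an unadjusted p under 0.05, again with no share of all genes beside them.

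In direction, the members were of one sign only between the 2 late subpopulations. All 10 genes were higher in cMyc+ lateCD23int than in cMyc+ lateCD23lo on the log2 scale, with a median log2 fold change of 0.70, whereas of all 12505 tested genes 51.2% were higher, with a median of 0.02. On the linear scale the mean of *Il6ra* was the other way round (50.9 against 77.0 normalized counts). When 1 of the 8 libraries was left out at a time, 9 or 10 genes were higher and the median was between 0.47 and 0.88, and *Il6ra* was the gene that turned, without cMyc+ lateCD23lo replicate 1 or 3. The 5 B cell markers were all higher in cMyc+ lateCD23int as well, with a median log2 fold change of 0.23. In the other comparisons the members were divided. Against cMyc+ prePB, 6 of 10 were higher in cMyc+ early and 8 in cMyc+ lateCD23int. Of all tested genes, 51.2% and 48.2% were higher in cMyc+ prePB there. Against cMyc+ lateCD23lo, 8 were higher in cMyc+ early (49.6% of all tested genes) and 6 in cMyc+ prePB (49.5%). Quantile normalization made the count of cMyc+ early 7 against cMyc+ prePB (*Il10ra* turned) and 7 against cMyc+ lateCD23lo (*Il2rb* turned). Against cMyc+ lateCD23int, 3 were higher in cMyc+ early (47.0% of all tested genes), and between 2 and 7 when 1 library was left out. By mean, 6 genes were lowest in cMyc+ lateCD23lo and 4 in cMyc+ prePB, and none in cMyc+ early or cMyc+ lateCD23int.

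A functional receptor needs both of its chains, and the ratios of such chains per kilobase of exon are given as a description chosen after the values were seen. *Il2rg* was 6.66 to 43.6 times *Il21r* over the 16 libraries, with ratios of 6.66 to 9.15 in cMyc+ prePB replicates 2, 3 and 4 and in cMyc+ lateCD23int replicate 3, and of at least 11.9 in all others. It was 62.7 to 333 times *Il4ra*. *Il10rb* was 3.51 to 133 times *Il10ra*, namely 17.0 to 22.8 times in cMyc+ prePB, 7.01 to 133 in cMyc+ early, 3.51 to 13.5 in cMyc+ lateCD23int and 4.06 to 10.5 in cMyc+ lateCD23lo. The 8 late libraries thus all lay below those of cMyc+ prePB. *Ifngr1* was above its partner *Ifngr2* in all 16 libraries. The ratio was 2.02 to 3.13 in cMyc+ prePB, 3.59 to 4.83 in cMyc+ early, 3.56 to 4.51 in cMyc+ lateCD23int and 3.25 to 7.53 in cMyc+ lateCD23lo, with no cMyc+ prePB library reaching any of the others. *Ifngr2* itself, which signals through JAK2, had means of 1230.2 ± 208 in cMyc+ prePB and 609 ± 295 in cMyc+ lateCD23lo (adjusted p of the F test 0.182 in limma). The ratio of *Ifnar1* to *Ifnar2* ranged from 0.120 to 4.78, *Ifnar1* being the higher in 7 of 16 libraries. It was the lower in all 4 of cMyc+ prePB and the higher in 3 of 4 in cMyc+ early and in cMyc+ lateCD23int. The second partner of *Il4ra*, *Il13ra1*, was at 0 to 1.02 normalized counts in all but 2 libraries (162 in cMyc+ prePB replicate 2 and 39.8 in cMyc+ lateCD23lo replicate 4).

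**Figure D4:**
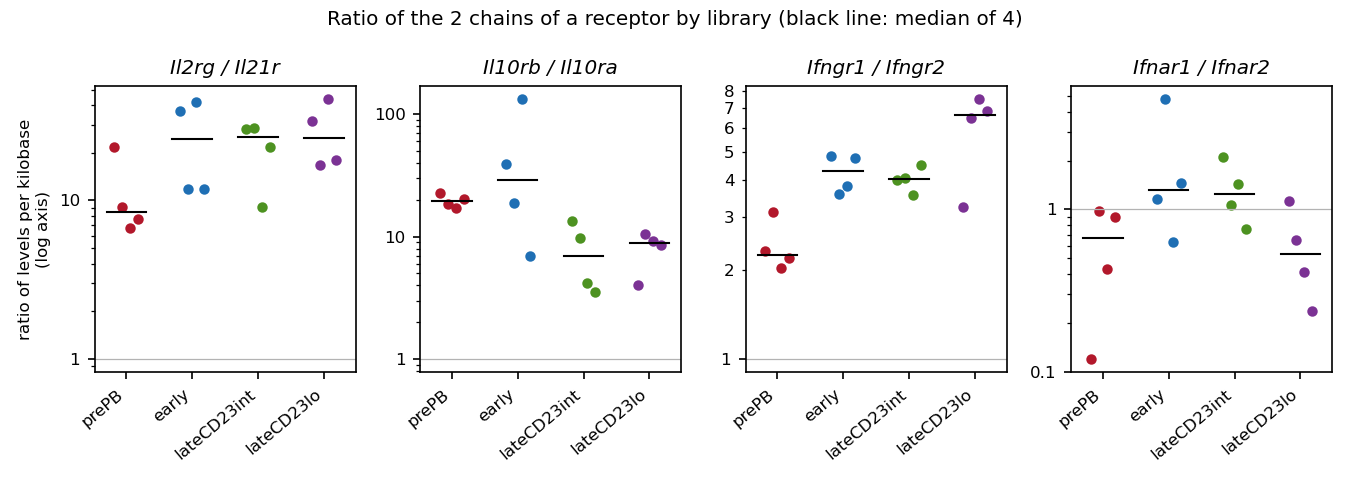
Ratio of levels per kilobase of exon for 4 pairs of receptor chains, 1 point per library on a log axis, with the median of 4 as a black line and a grey line at 1. The ratio of *Ifngr1* to *Ifngr2* is 2.02 to 3.13 in cMyc+ prePB and at least 3.25 in all other libraries, and that of *Il10rb* to *Il10ra* is lowest in the late subpopulations.

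Among themselves, the 10 genes did not move as a block. Over the 16 libraries the 45 pairs had a median correlation of 0.188 on the log2 scale (range -0.64 to 0.702), and 32 pairs were above 0. With the means of the subpopulations removed, the median was 0.105. The highest pairs were *Il10rb* with *Ifngr1* (r = 0.702), *Il2rg* with *Ifngr1* (0.653) and *Il4ra* with *Ifnar1* (0.615). The chromosome 7 neighbours *Il21r* and *Il4ra* correlated at 0.576, and at 0.569 within subpopulations. These correlations share libraries and depth and are descriptions.

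Over all tested genes, the pattern most like that of *Il21r* was that of *Nfkbie* (r = 0.931 over 16 libraries), an inhibitor of NF-kB, followed by *Clic4* (0.914) and *Prag1* (0.909). For *Il4ra* it was *Stat6* (0.869), *Flna* (0.848) and *Ctsa* (0.839), and for *Il2rg* it was *Gimap6* (0.919), *2810002D19Rik* (0.916) and the invariant chain *Cd74* (0.916). *Mfsd10* led for *Ifnar1* (0.893), *Rras2* for *Il6st* (0.897) and *Txndc16* for *Il10ra* (0.862). The lowest likeness was that of *Il10rb* (*Tsc22d3*, 0.791) and of *Il6ra* (*Klf4*, 0.789), and *Il2rb* was led by *Tgoln1* (0.841). These values were picked as the highest over 12505 tested genes, with the means of the subpopulations left in. They have no p-value and are descriptions, and shared regulation was not tested.

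In other genes of the pathway, calls were made where none was made in the 10 receptors. Of 24 other cytokine receptor chains 18 were tested and 2 passed the F test, against 0.408% of all genes. *Lifr*, which pairs with gp130 to bind LIF, was at 1.07 to 4.96 normalized counts in cMyc+ prePB and 6.55 to 18.4 in cMyc+ lateCD23lo, but at 26.2 to 219 in cMyc+ early and 71.2 to 461 in cMyc+ lateCD23int (adjusted p = 0.0126 in limma). *Il5ra*, the chain that binds IL-5, was at 6.31 to 170 in cMyc+ prePB, 306 to 982 in cMyc+ early, 272 to 692 in cMyc+ lateCD23int and 88.7 to 406 in cMyc+ lateCD23lo (adjusted p = 0.0282), a call lost in 11 of 16 fits that left out 1 library. *Csf2rb*, the signalling partner of *Il5ra*, was highest in cMyc+ lateCD23lo at 386 to 722 and did not pass (adjusted p = 0.142). *Il2ra*, the alpha chain of the IL-2 receptor, was at 368 to 762 in cMyc+ prePB and at 29.7 to 235 in the other 12 libraries, with an adjusted p of 0.220 in limma, and was picked out after its values were seen.

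**Figure D5:**
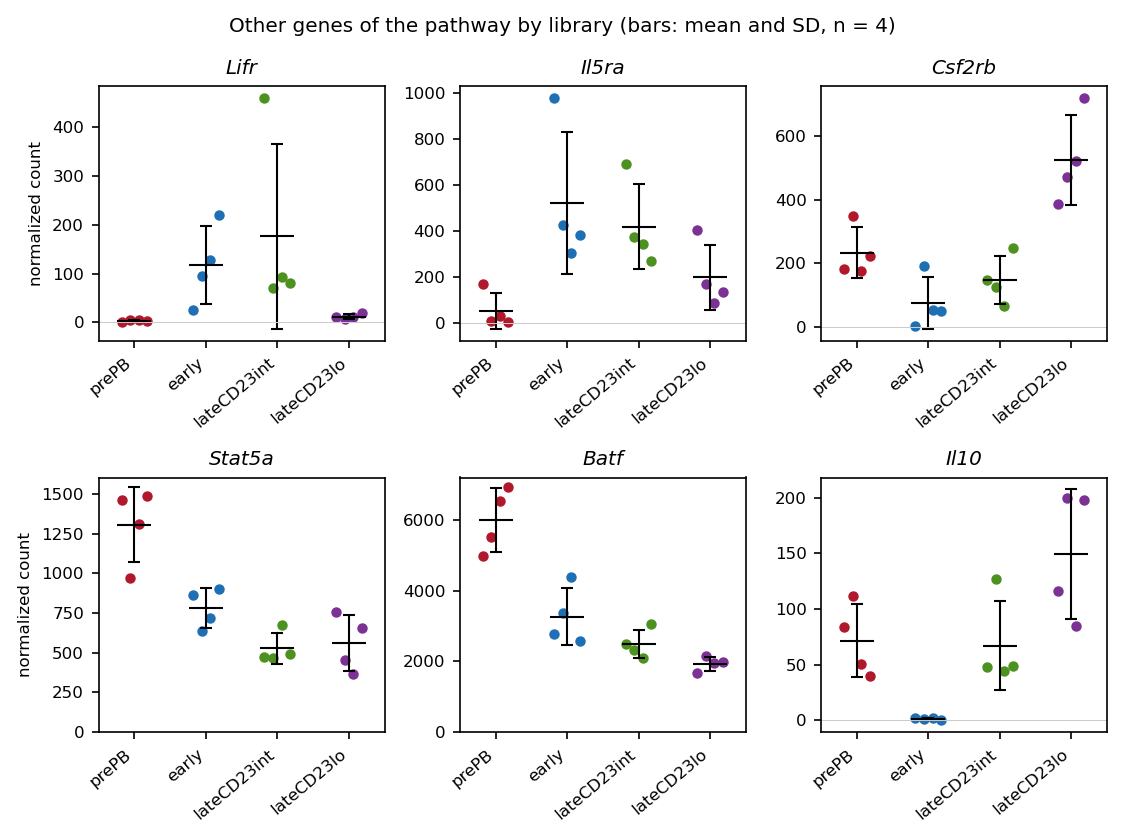
Normalized counts of 6 other genes of cytokine signalling in the 4 libraries of each subpopulation (linear axes), with the mean and SD as black bars. *Lifr* and *Il5ra* are high in cMyc+ early and cMyc+ lateCD23int, *Batf* and *Stat5a* are highest in cMyc+ prePB, and *Il10* has at most 3 reads in each of the cMyc+ early libraries.

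Of the 4 JAK kinases 0 passed in limma, and *Jak1*, a kinase used by the receptors of all these ligands, had the lowest p (unadjusted 0.0266, adjusted 0.419). It was at means of 10159, 9731, 9669 and 6838 normalized counts in cMyc+ prePB, cMyc+ early, cMyc+ lateCD23int and cMyc+ lateCD23lo. Of 7 STAT factors 1 passed: *Stat5a*, which acts downstream of IL-2 and IL-5, was at 971 to 1489 in cMyc+ prePB and at 369 to 904 in the other 12 libraries (adjusted p = 0.0447), and the call was lost in 14 of 16 fits that left out 1 library. *Stat3*, the main factor of IL-21 and IL-6, was at a mean of 4877 in cMyc+ prePB and 2601 to 3457 in the others (adjusted p = 0.450 in limma). Of 16 feedback inhibitors 15 were tested and 0 passed in limma, where 4 had an unadjusted p under 0.05. The lowest p-values were those of *Pias1* (adjusted p = 0.256), *Socs2* (0.263) and *Ptpn1* (0.438).

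Of 14 genes known to respond to these cytokines 2 passed. *Batf*, an AP-1 factor induced by IL-21, was at 4969 to 6937 normalized counts in cMyc+ prePB and at 1667 to 4376 elsewhere (adjusted p = 0.000926 in limma), and was called in all 16 fits that left out 1 library. *Fcer2a*, which encodes CD23 and is induced by IL-4, also passed (adjusted p = 0.0130), but CD23 was used to sort 3 of the 4 subpopulations, so that its difference between those is no finding. *Ccl22*, a chemokine, narrowly missed (adjusted p = 0.0530). Of 13 ligands only 3 were abundant enough to be tested, and *Il10* passed (adjusted p = 0.000722). In cMyc+ early none of the 4 libraries held more than 3 reads of it, and it was at 39.7 to 112 normalized counts in cMyc+ prePB, 44.6 to 127 in cMyc+ lateCD23int and 84.6 to 199 in cMyc+ lateCD23lo. The ligands *Il6*, *Ifng* and *Ifnb1* were at 0 in every library. The means of *Il21* and *Il4* did not exceed 6.09 and 4.59 normalized counts in any subpopulation.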

How the data were processed

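Total RNA of sorted cMyc+ GC B cells was sequenced on an Illumina HiSeq4000 from 16 libraries made with a low-input kit. The submitters' processing notes name Trimmomatic 0.36, STAR 2.5.2a, RSEM 1.2.31, DESeq2 1.20.0, R 3.5.1 and the build GRCm38, and roles and settings are not given in the sources used here. The values deposited by the authors are a signal, namely the count of each gene after division by the size factor of its library. Each value was a whole multiple of what 1 read is worth in its library, and dividing by that step gave whole reads in 100% of cases (tolerance 0.01 of a read), with 19812080 to 25795815 reads per library. Strand was not used as far as the sources state, so that a gene and an antisense partner cannot be told apart.

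The 12505 genes whose mean reached 10 were fitted as log2(normalized count + 1) over all 16 libraries in limma 3.58.1 (R 4.3.3) with a trended prior, and p-values were adjusted by Benjamini-Hochberg over all of them at 0.05. A multigroup F test and the 6 pairwise comparisons were made, all two-sided. The added 1 damps the fold changes of low genes, while libraries near 0 can make them larger than the ratio of the means. For *Il6st* between cMyc+ prePB and cMyc+ lateCD23lo, limma gave a log2 fold change of 2.99 and edgeR 1.80. The members, the gene lists and the rule for named genes (all members, up to 3 genes of each list with the lowest F test p, and the 3 genes most correlated with each member) were chosen with earlier results of these data known. *Ifngr2*, *Ifnar2*, *Il13ra1* and *Il2ra* were named beside them after their values were seen. A few genes that the rule would name are not reported here. Lengths and coordinates are from GENCODE on GRCm38, promoters from RefSeq. The fits were tested on simulated data.

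As alternatives, the pseudocount was set to 0.5 or 5, the minimum mean to 50 or dropped, values were scaled to equal totals or quantile-normalized, the trend was left out, and each pair of groups was fitted alone. Further fits used a replicate block, edgeR 4.0.16 (quasi-likelihood) on the recovered reads with and without that block, and 15 libraries at a time. The labels number the libraries 1 to 4 in each subpopulation and do not say that a number marks shared mice. Deviations of same-numbered libraries correlated at -0.13 to 0.174 (median 0.0704), and 5 of 24 pairs exceeded 0.1. Libraries of different number and group had a median of -0.0196. The numbers were not taken to pair the libraries in the main fit. With the replicate block the F test made more calls over all genes, and whether the numbers mark shared mice was not settled.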

Additional observations from a re-analysis of the deposited data

Results flagged for a closer look

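In 5 of 40 combinations of gene and subpopulation, 1 library of 4 stood so far from the other 3 that the ratio of its gap to the nearest one to the whole range was above Dixon's 95% critical value. About 1 in 20 would exceed it in normally distributed values. That rate need not hold for these untransformed counts, so that the number flagged is a description. *Il21r* was at 2804 normalized counts in cMyc+ lateCD23int replicate 3, against 1003 to 1216 in the other 3. *Il4ra* was at 698 in cMyc+ early replicate 2, against 251 to 313. *Ifnar1* was at 1019 in the same library, against 254 to 385. *Il6st* was at 228 in cMyc+ prePB replicate 3, against 45.1 to 68.6. *Il2rb* was at 91.4 in cMyc+ early replicate 3, against 0 to 10.8. In all 5 the library was the highest of its group.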

How the results depend on the processing

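With a replicate block, 0 of 10 members passed in the F test and in each of the 6 comparisons. In that F test 4 had an unadjusted p under 0.05, a count without the share of all genes beside it. The lowest adjusted p of *Il21r* between cMyc+ prePB and cMyc+ lateCD23lo was 0.0845 with the block. Under every other setting fitted to all 16 libraries the count of members that passed stayed at 0. When 1 library was left out, it was 0 in all fits but 1: between cMyc+ prePB and cMyc+ lateCD23lo it ranged from 0 to 1, *Il21r* passing without cMyc+ prePB replicate 1. Of 18 member fold changes followed, 2 near 0 turned their sign, all without 1 library: that of *Il2rg* between cMyc+ early and cMyc+ lateCD23int was -0.047 without cMyc+ early replicate 1 and -0.014 without cMyc+ lateCD23int replicate 4 (range -0.047 to 0.16), and that of *Ifngr1* between cMyc+ prePB and cMyc+ lateCD23lo was 0.0016 without cMyc+ lateCD23lo replicate 3 (range -0.31 to 0.0016). Counts over all genes in the F test (51) were 25 without the trend, 31 without a filter, 29 in edgeR, 173 with the block and 129 with edgeR and the block. In the order of the 6 comparisons given in the report (24, 18, 33, 1, 35 and 1), they were 65, 121, 192, 1, 90 and 1 with the block, 1, 8, 13, 0, 19 and 0 with only the groups compared, 4, 9, 21, 1, 29 and 1 without a filter, 12, 9, 28, 1, 24 and 2 without the trend, 8, 11, 31, 1, 23 and 1 in edgeR, and 54, 94, 142, 0, 63 and 1 in edgeR with the block. Quantile normalization gave 29 in place of 18, and 0 in place of 1 in both comparisons with 1 call. *Stat5a*, *Il5ra* and *Fcer2a* lost their call under 2, 3 and 2 of 10 alternatives. At 4 libraries per group, differences of the low genes *Il6st*, *Il2rb*, *Il6ra* and *Il10ra* were measured with standard errors of 0.79 to 1.28 on the log2 scale.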
